A study of Rattus norvegicus with 18 samples.

Results

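The stress response of skeletal muscle was followed through 5 genes in gastrocnemius RNA of young rats fed ad libitum (AL), aged rats fed AL and aged rats under caloric restriction (CR). The genes were Hspa5 (ENSRNOG00000018294), Ddit3 (ENSRNOG00000006789), Hspb1 (ENSRNOG00000023546), Hmox1 (ENSRNOG00000014117) and Nqo1 (ENSRNOG00000012772). They were taken by identifier and kept because each lay on the chromosome given for it, a rule that uses no measured value. The list of 5 genes itself was chosen with earlier results of these data known. They are 5 of the 32883 identifiers in the deposited table, and all 5 were among the 14646 genes tested. The rats were male Brown Norway animals, 6 per group. Their age was 6 months in the young group and 28 months in the aged AL and aged CR groups. CR began at 2 months of age and supplied 55% of the AL intake. CR rats were fed once a day in the morning whereas AL rats had food at all times, so time since feeding and caloric intake cannot be told apart. Aged CR and young rats differ in both age and diet, and there was no young CR group. A comparison of aged CR with young rats therefore cannot tell age and diet apart.

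Cells answer misfolded protein and oxidants through partly separate pathways. In the endoplasmic reticulum the chaperone BiP, encoded by Hspa5, binds unfolded chains and restrains the sensors of the unfolded protein response, and Ddit3 encodes CHOP, a transcription factor made when that response persists. In the cytosol, Hspb1 encodes a small heat shock protein that holds unfolding proteins without ATP and, in muscle, associates with actin and the sarcomere. Hmox1 and Nqo1 are textbook targets of the antioxidant regulator NRF2: heme oxygenase 1 breaks heme down to biliverdin, carbon monoxide and iron, and Nqo1 reduces quinones without forming semiquinone radicals.

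The promoters of Hspa5 and Hspb1 are shown because, over all libraries, these genes had the lowest levels in aged CR muscle relative to young muscle. Without library 8828 of the aged CR group, the log2 fold change was lower for Hmox1 (-1.01) than for Hspb1 (-0.94). RefSeq windows of assembly GRCr8 were at hand for Hspb1, Hspa5, Ddit3 and Nqo1 (not Hmox1), and the 250 bases before each start site were searched on both strands. Capitals mark the ER stress element, CCAAT and CCACG separated by 9 bases, in Hspa5 (chr3:38452766-38453015, plus strand), and the heat shock element, GAANNTTC or TTCNNGAA, in Hspb1 (chr12:26432302-26432551, minus strand).
Hspa5: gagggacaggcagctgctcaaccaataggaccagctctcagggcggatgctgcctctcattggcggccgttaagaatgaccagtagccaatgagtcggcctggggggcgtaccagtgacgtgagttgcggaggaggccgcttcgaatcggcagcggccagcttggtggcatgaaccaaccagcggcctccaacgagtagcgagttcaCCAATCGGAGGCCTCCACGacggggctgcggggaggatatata
Hspb1: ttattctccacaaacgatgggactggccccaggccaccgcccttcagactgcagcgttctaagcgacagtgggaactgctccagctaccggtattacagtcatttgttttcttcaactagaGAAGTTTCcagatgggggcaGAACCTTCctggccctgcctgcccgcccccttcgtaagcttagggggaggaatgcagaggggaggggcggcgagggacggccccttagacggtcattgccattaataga

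The Hspa5 window held 1 ER stress element, 43 to 25 bases before the start site, which 22 of 33469 promoter windows held (0.0657%). The Hspb1 window held 2 heat shock elements, 129 to 122 and 109 to 102 bases before the start site, against 13.5% of all windows with at least 1. The antioxidant response element TGACNNNGC (10.1% of windows) and the C/EBP-ATF composite TGATGNAAT (0.944% of windows) had no match in any of the 4 windows. The windows of Ddit3 and Nqo1 held no exact match to any of the 4 motifs, and the search allowed no mismatch. On its opposite strand the Ddit3 window held CCAAT and GCACG at the spacing of the ER stress element, 1 letter from that motif. Such near matches were not counted in any window. Exact and near matches alike are matches of letters and say nothing on binding.

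Total counts per library were 19940496 to 24474703 in young rats fed AL, 17335401 to 23351719 in aged rats fed AL and 20174316 to 27432767 in aged CR rats. Of the libraries, 3 of the aged CR group could be assigned to the group but not to a rat and are called by library number. Library numbers run in a separate block for each group, so handling and group cannot be told apart if blocks were handled apart. In principal components of all genes tested, rat 8 (aged, AL) lay at 97.8 and library 8828 (aged, CR) at 65.6 on the first component, and no other library was above 6.55. Markers of muscle and of other cell types were not analysed here, since the table carries no gene symbols. In whole muscle, fewer cells of a type and less RNA per cell cannot be told apart.

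Levels are given as CPM, the counts scaled to library size, after TMM scaling. Set against the length of each gene, Hspb1 and Hspa5 were far above the other genes. In young rats fed AL, Hspb1 had 497 ± 123 CPM per kilobase (SD, n = 6), Hspa5 224 ± 77.6, Ddit3 24.4 ± 4.74, Nqo1 17.6 ± 2.82 and Hmox1 9.53 ± 4.78. Over all libraries Hspb1 and Hspa5 stood at percentiles 98.7 and 97.3 of the genes tested by this measure, Ddit3 at 80.7, Nqo1 at 76.2 and Hmox1 at 64.2. Counting error was small for each gene, the lowest single count being 103 (Hmox1), where it amounts to 9.85% of the value. The SD of log2 CPM within groups was 0.96 for Hmox1, at percentile 97.5 of the genes tested, and 0.567 for Hspb1, 0.381 for Nqo1, 0.34 for Ddit3 and 0.337 for Hspa5, against a median of 0.305 over all genes tested.

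**Figure D1:**
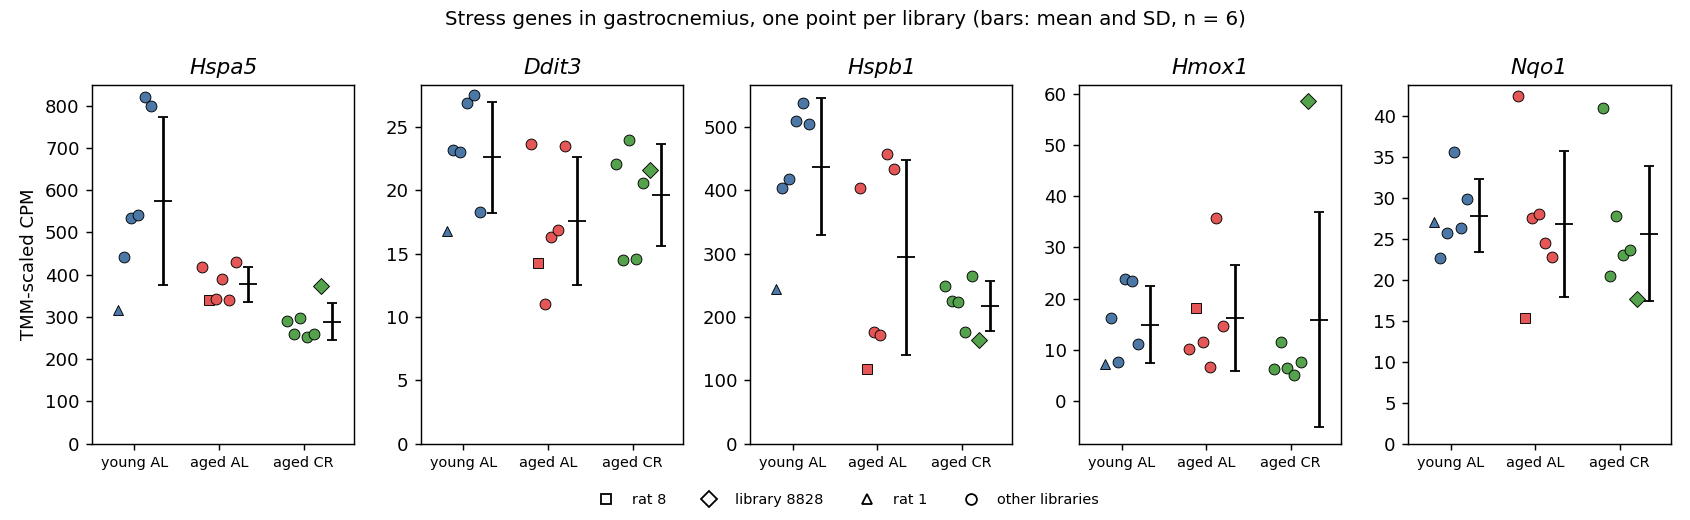
TMM-scaled CPM (vertical axes, a separate scale for each gene) of the 5 stress genes in each library of the 3 groups, with the mean and SD of 6 libraries at the right of each group. Hspa5 means are 575, 377 and 289 CPM, of which edgeR called aged CR against young and DESeq2 also aged AL against young, Hspb1 falls into high and low libraries in aged rats fed AL, and library 8828 stands alone for Hmox1 at 58.5 CPM.

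The chaperone of the endoplasmic reticulum was the clearest case. The Hspa5 gene spans 13838304 to 13842762 of chromosome 3 (Rnor_6.0, the build of all gene positions below). Its level was 575 ± 199 CPM in young rats fed AL, 377 ± 41.2 in aged rats fed AL and 289 ± 44.6 in aged CR rats (SD, n = 6 each). Among young rats the lowest value was 316, the median 537 and the highest 820. Aged rats fed AL ran from 340 to 429 with a median of 366, and aged CR rats from 253 to 372 with a median of 275. Young rats thus spread widely, with rats 5 and 6 at 820 and 798 and rat 1 below every aged rat fed AL, whereas both aged groups were narrow. The coefficient of variation was 34.6% in young rats, 10.9% in aged rats fed AL and 15.4% in aged CR rats. Of the 36 pairings of an aged CR rat with a young rat, the aged CR rat was lower in 35, and the exception paired library 8828 with rat 1.

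In aged CR muscle Hspa5 was at 0.502 times its level in young muscle, a log2 fold change of -0.99 ± 0.19 (SE) with a 95% interval of -1.39 to -0.60 (adjusted p = 0.00751, edgeR's quasi-likelihood test). In the edgeR fit of all 18 libraries, Hspa5 was the only one of the 5 genes called in this comparison (DESeq2 also called Hspb1). A call is an adjusted p of at most 0.05 with a fold change of at least 1.5. Such a call in either direction was made for 1.98% of genes tested, and a call in the lower direction for 1.22%. These lower calls were 178 genes, against 112 higher, and 149 against 165 with upper-quartile scaling. The call for Hspa5 was made in each of the 18 fits that left out 1 library, with log2 fold changes from -1.12 to -0.87. DESeq2's Wald test gave -0.99 with an adjusted p of 5.03e-05.

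Between aged and young rats fed AL, the Hspa5 log2 fold change was -0.61 ± 0.19 (SE, 95% interval -1 to -0.22). Its unadjusted p was 0.0044 and its adjusted p 0.0699 (edgeR), so it was not called. DESeq2's Wald test over all 18 libraries called it, with a log2 fold change of -0.60 and an adjusted p of 0.0291. With only the 2 groups compared it was not called, at -0.60 with an adjusted p of 0.0678 in DESeq2 and 0.145 in edgeR. In edgeR with 1 library left out it was called without rat 1, at -0.73 with an adjusted p of 0.0244, and without rat 2, at -0.68 with an adjusted p of 0.0462.

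Between the aged groups, the Hspa5 log2 fold change in CR rats was -0.38 ± 0.19 (SE, 95% interval -0.78 to 0.01, adjusted p = 0.343, edgeR), which did not pass the test. In 33 of the 36 pairings the CR rat was the lower, and the remaining 3 all involved library 8828. Without that library the aged CR rats had 272 ± 20.3 CPM (SD, n = 5), from 253 to 298. The log2 fold change against aged rats fed AL was then -0.47 with an adjusted p of 0.194. With rat 8 also left out it was -0.49 with an adjusted p of 0.159. DESeq2 with only the 12 aged libraries gave -0.39 with an adjusted p of 0.0486, which is below the fold change minimum for a call.

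**Figure D2:**
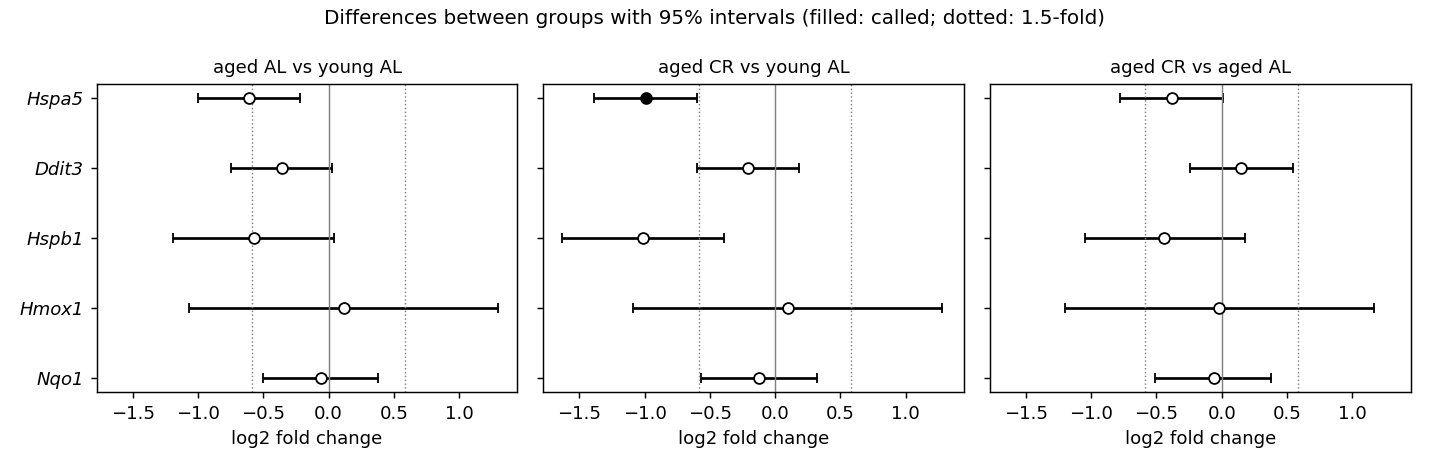
Log2 fold change (horizontal axes) of each gene in the 3 comparisons, with 95% intervals from the edgeR fit of all 18 libraries. A filled point marks a call, and dotted lines mark 1.5-fold. The only edgeR call is Hspa5 in aged CR against young muscle, and the Hmox1 intervals span more than 2 log2 units.

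Ddit3, the other gene of the unfolded protein response, did not pass the test in any comparison by edgeR or DESeq2. It lies on chromosome 7 from 70580198 to 70585084, and 72 bases of its exons are shared with a gene on the opposite strand that had 1870 to 3207 counts per library. The header shows no strand option in the counting, so reads in those bases cannot be told apart by strand. Young rats fed AL had 22.6 ± 4.38 CPM, with a lowest value of 16.8, a median of 23.1 and a highest of 27.5. Aged rats fed AL had 17.6 ± 5.06, from 11 to 23.7 with a median of 16.6. Aged CR rats had 19.6 ± 4.03, from 14.5 to 24 with a median of 21.1 (SD, n = 6 each). All pairs of groups overlapped over most of their range. The log2 fold change was -0.36 in aged rats fed AL (95% interval -0.75 to 0.03, adjusted p = 0.267) and -0.21 in aged CR rats (-0.60 to 0.18, adjusted p = 0.58) against young rats. Aged CR against aged AL rats gave 0.15 (-0.24 to 0.55, adjusted p = 0.752, edgeR). Without rat 8 and library 8828 the 3 values were -0.30, -0.23 and 0.07. With library totals as the only scaling they were -0.20, -0.20 and 0, and the value between the aged groups was 0.05 without rat 9 and 0.26 without rat 7.

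Hspb1 had its lowest mean in aged CR muscle as well. The gene, on chromosome 12 from 23839399 to 23841049, had 437 ± 108 CPM in young rats fed AL, 294 ± 154 in aged rats fed AL and 217 ± 39.7 in aged CR rats (SD, n = 6 each). Young rats ran from 244 to 538 with a median of 462, and aged CR rats from 163 to 264 with a median of 224. Rat 1 was the only young rat within the range of the aged CR group, and in 34 of 36 pairings the CR rat was lower.

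Aged rats fed AL did not form 1 cluster for Hspb1. Rats 7, 11 and 12 had 404, 458 and 433 CPM, within the range of young rats, and rats 8, 9 and 10 had 118, 177 and 172 CPM, below every young rat. Ddit3 was highest among aged rats fed AL in rats 7 and 12 (23.7 and 23.5 CPM), with 16.9 in rat 11, and was 14.3, 11 and 16.3 CPM in rats 8, 9 and 10. Hspa5 had no such division, at 418, 340 and 429 CPM in rats 7, 11 and 12 and 341, 342 and 390 CPM in rats 8, 9 and 10.

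Against young rats, the Hspb1 level in aged CR rats was 0.497-fold, a log2 fold change of -1.01 ± 0.30 (SE, 95% interval -1.63 to -0.39). The unadjusted p was 0.00295 and the adjusted p 0.0727 (edgeR), so it was not called by the fit of all libraries. DESeq2's Wald test called it with an adjusted p of 0.0177. It was also called in edgeR with only the 12 libraries compared, at -1 with an adjusted p of 0.00959, a fit that leaves out the aged rats fed AL. Leaving out rat 8, which belongs to neither group, gave an adjusted p of 0.0241 at -1, and leaving out rat 1 gave 0.0492 at -1.13. In aged rats fed AL the log2 fold change against young rats was -0.57 ± 0.29 (SE, 95% interval -1.19 to 0.04, adjusted p = 0.26). Between the aged groups it was -0.44 ± 0.29 (SE, 95% interval -1.05 to 0.18, adjusted p = 0.523). Both of these intervals include 0. Without rat 8 the aged rats fed AL had 329 ± 142 CPM (SD, n = 5), and the values were -0.41 (adjusted p = 0.38) and -0.59 (adjusted p = 0.185). Leaving out the high aged AL libraries moved them the other way, to -0.74 and -0.27 without rat 11 and to -0.71 and -0.30 without rat 12. Without library 8828 the value was -0.37 between the aged groups and -0.94 (adjusted p = 0.14) in aged CR against young rats.

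**Figure D3:**
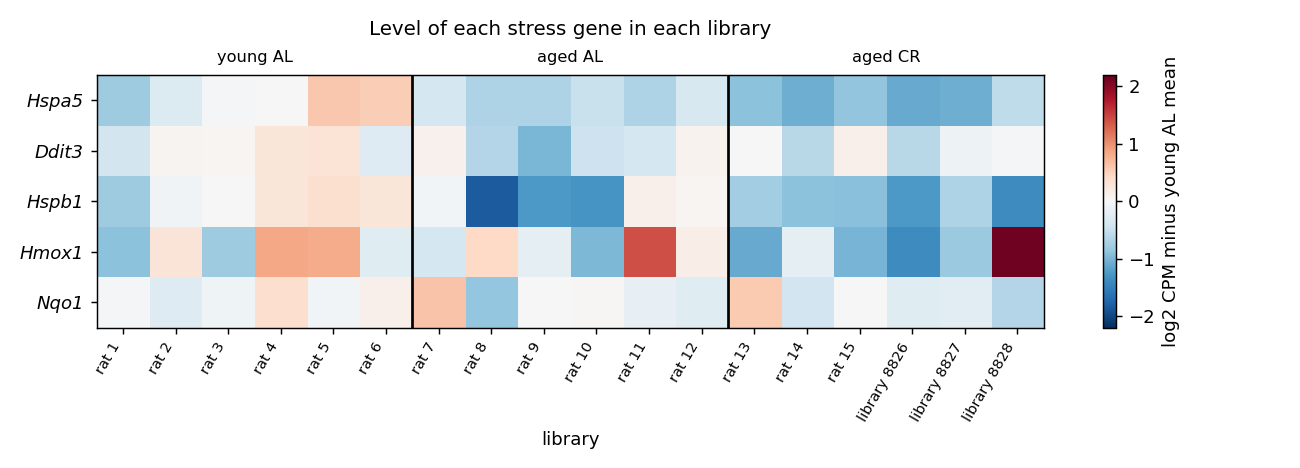
Level of each gene (rows) in each library (columns, ordered by group) as log2 CPM minus the mean of the young rats fed AL, red above and blue below. Hspa5 is below the young mean in all 12 aged libraries, and the strongest red is Hmox1 in library 8828 at 2.13.

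The targets of NRF2 gave no call by edgeR or DESeq2. Hmox1, on chromosome 19 from 14508616 to 14515456, had nearly equal means, with 14.9 ± 7.49 CPM in young rats fed AL, 16.2 ± 10.3 in aged rats fed AL and 15.9 ± 21 in aged CR rats (SD, n = 6 each). The medians were 13.7, 13.1 and 7.07 CPM. Young rats ran from 7.17 to 23.9, aged rats fed AL from 6.73 to 35.7 and aged CR rats from 5.08 to 58.5. The highest aged AL value was that of rat 11, with the next at 18.1 in rat 8, and the highest CR value that of library 8828, with the next at 11.5 in rat 14. The other 5 aged CR libraries had 7.39 ± 2.48 CPM (SD, n = 5). Rat 8 and library 8828 are the libraries that stood apart on the first component. The part of this in the Hmox1 values was not tested.

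The log2 fold change of Hmox1 was 0.12 in aged rats fed AL (95% interval -1.07 to 1.30, adjusted p = 0.93) and 0.10 in aged CR rats (-1.09 to 1.28, adjusted p = 0.948) against young rats. Aged CR against aged AL rats gave -0.02 (-1.20 to 1.17, adjusted p = 0.994, edgeR). These intervals allow more than 2-fold in either direction. Library 8828 decided the values of the CR group. Without it the log2 fold change was -1.01 against young rats (unadjusted p = 0.0209, adjusted p = 0.216) and -1.13 against aged rats fed AL (adjusted p = 0.128), neither called. Without rat 11 the value in aged rats fed AL against young rats was -0.28 (adjusted p = 0.814).

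**Figure D4:**
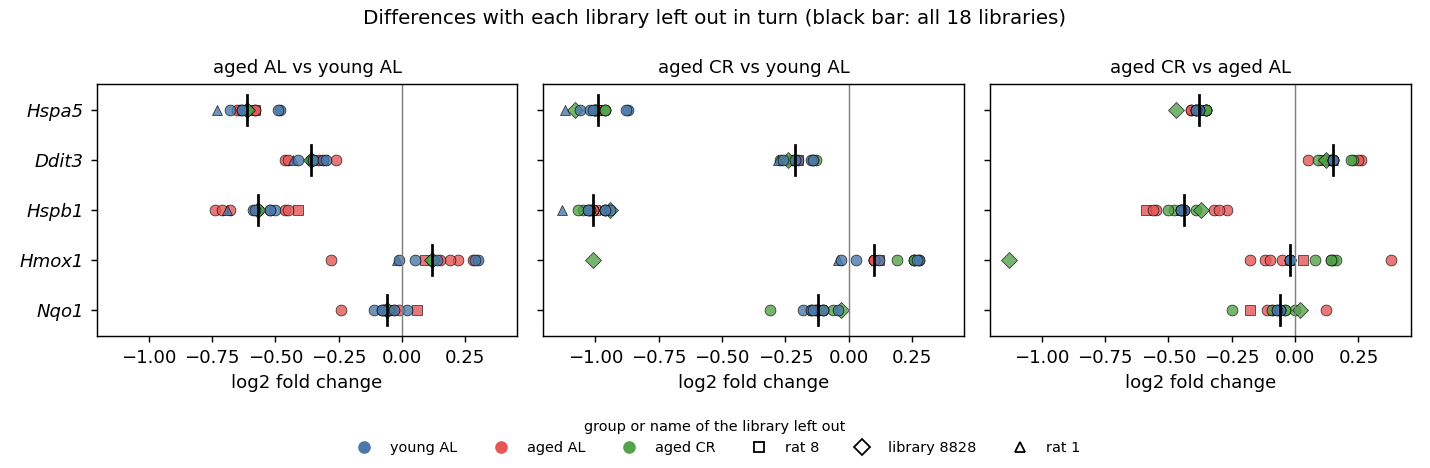
Log2 fold change (horizontal axes) of each gene when each of the 18 libraries is left out in turn, coloured by the group of the library left out. The black bar is the value with all libraries. Hmox1 moves to -1.01 and -1.13 in the CR comparisons without library 8828, and Hspa5 stays between -1.12 and -0.87 in aged CR against young muscle.

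Nqo1 had nearly equal means as well. On chromosome 19 from 38422164 to 38437180, it had 27.8 ± 4.46 CPM in young rats fed AL, 26.8 ± 8.93 in aged rats fed AL and 25.6 ± 8.26 in aged CR rats (SD, n = 6 each). Values ran from 22.6 to 35.6 in young rats (median 26.7), from 15.3 to 42.4 in aged rats fed AL (median 26) and from 17.7 to 41 in aged CR rats (median 23.3). The lowest value of each aged group was that of rat 8 or library 8828, and the highest were those of rats 7 and 13. Log2 fold changes were -0.06 (95% interval -0.50 to 0.38) in aged rats fed AL, which turned to 0.09 with library totals as the only scaling, and -0.12 (-0.57 to 0.32) in aged CR rats against young rats. Between the aged groups the value was -0.06 (-0.51 to 0.38), and 0.12 without rat 7. Without rat 8 and library 8828 the 3 values were 0.06, -0.03 and -0.09, and aged CR against young rats gave -0.31 without rat 13. The lowest adjusted p of the 3 was 0.798 (edgeR). All 3 intervals lie inside 1.5-fold, the lowest bound being 0.676-fold and the highest 1.31-fold.

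In the comparison of aged with young rats fed AL, 0 of the 5 genes passed the rule for a call, against 3.39% of genes tested. At an unadjusted p under 0.05 there was 1 of 5, against 22.3% of all genes, and with DESeq2 1 of 5 was called, against 5.81%. Between aged CR and young rats 1 of 5 was called by edgeR (1.98% of all genes), 2 of 5 had an unadjusted p under 0.05 (19.3% of all genes) and 2 of 5 were called by DESeq2 (4.03% of all genes). For aged CR against aged AL rats 0 of 5 were called (1.38% of all genes), 0 of 5 had an unadjusted p under 0.05 (15.3%) and 0 of 5 were called by DESeq2 (2.74%). The unadjusted p of Hspa5 there was 0.0554, and 0.00955 in edgeR with only the 2 aged groups (adjusted p = 0.162, not called). In no comparison did the groups separate without overlap for any of the 5 genes, where 2.4%, 3.26% and 2.06% of genes tested did so in the order above. This rested on single libraries. Without rat 1, Hspa5 separated in both comparisons with young rats, and Hspb1 in aged CR against young rats. Without library 8828, Hspa5 separated in both comparisons of the CR group. The shares of all genes tested without these libraries are not given here. The 5 genes had median log2 fold changes of -0.36, -0.21 and -0.06, beside 0.01, 0 and -0.02 over all genes tested. Both aged groups were compared with the same young rats.

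Rat 1 had the lowest value of the young group in 4 of the 5 genes, all but Nqo1, and rat 5 the highest in 3. Library 8828 was highest of the aged CR group in 2 genes (Hspa5 and Hmox1) and lowest in 2 (Hspb1 and Nqo1). The levels of several of the genes followed each other across libraries, which share their depth and scaling. Over the 18 libraries the Spearman correlation of log2 CPM was 0.64 between Hspb1 and Ddit3, 0.59 between Hspb1 and Hspa5 and 0.53 between Hspa5 and Ddit3. For deviations from the group means these were 0.61, 0.38 and 0.60. The NRF2 targets did not follow each other, with -0.38 between Hmox1 and Nqo1 over all libraries and -0.21 without rat 8 and library 8828. Hmox1 and Hspb1 had 0.27 over all libraries and 0.67 without rat 8 and library 8828, the largest move of the 10 pairs. Hmox1 and Hspa5 had 0.49 over all libraries and 0.59 without rat 8 and library 8828. For deviations from the group means over all libraries, that pair had 0.18.

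**Figure D5:**
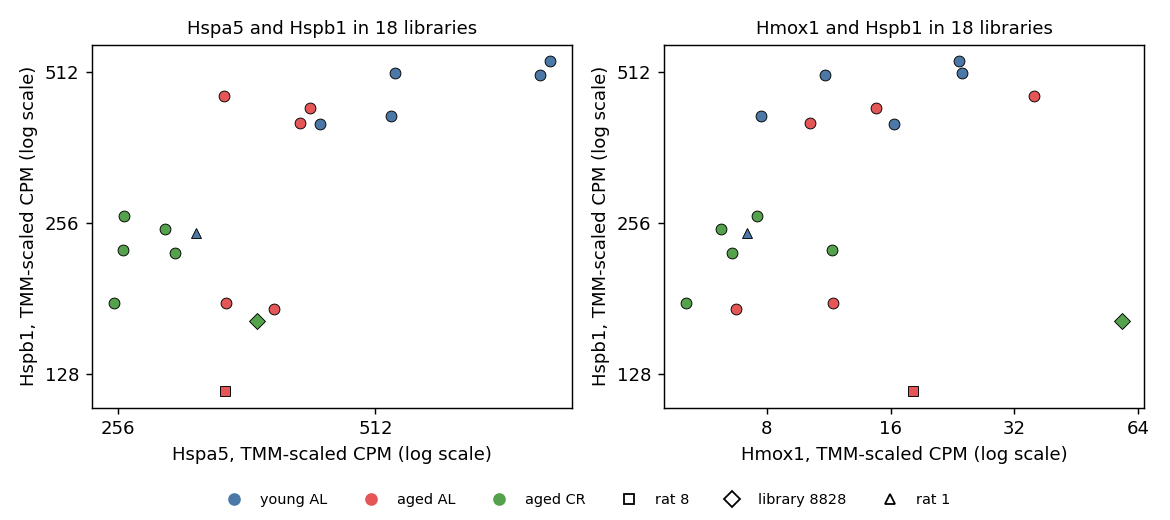
Levels of Hspb1 (vertical axes) against Hspa5 (left) and Hmox1 (right) in the 18 libraries, as TMM-scaled CPM on log scales, coloured by group. Young rats other than rat 1 lie at the upper right of the left panel, where rats 7 and 12 (aged, AL) lie close to young rat 2. In the right panel rat 8 and library 8828 have the lowest Hspb1 levels of all, 118 and 163 CPM.

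Among the other genes tested, the level most like that of Nqo1 over the 18 libraries was that of ENSRNOG00000014178 on chromosome 2 (Spearman 0.886), and most like that of Hspb1 was ENSRNOG00000014297 on chromosome 3 (0.882). The latter had 211 ± 84.7 CPM in young rats fed AL, 109 ± 40.1 in aged rats fed AL and 108 ± 13.7 in aged CR rats (SD, n = 6 each). The highest values were 0.88 for Hspa5, 0.848 for Ddit3 and 0.829 for Hmox1. A correlation above 0.8 was found with 26 genes for Hspb1, 22 for Hspa5, 15 for Hmox1, 11 for Nqo1 and 6 for Ddit3. These genes were picked as the highest of all genes tested.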

How the data were processed

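Gastrocnemius RNA of 18 rats was depleted of ribosomal RNA, made into strand-specific libraries and sequenced. The authors trimmed reads with Cutadapt 1.2.1, aligned them with STAR 2.3.0e and counted fragments with featureCounts 1.6.4 on Ensembl annotation 96 of Rnor_6.0, without a strand option per the file headers. The deposited values are these raw counts, one whole number for each gene and library, with gene length in bases. All columns of sample values were used.

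In R 4.3.3, edgeR 4.0.16 kept 14646 genes (filterByExpr), scaled libraries with TMM factors and tested the 3 group differences by the quasi-likelihood test in 1 fit of all 18 libraries, with Benjamini-Hochberg adjustment over all genes tested. The thresholds of the study were used for calls (fold change of 1.5 or more, adjusted p of 0.05 or less). SEs were derived from F and the log2 fold change, and 95% intervals use the moderated degrees of freedom. Principal components and correlations used log2(CPM + 0.5). The fits were tested on simulated data. DESeq2 1.42.0 with its Wald test, other scalings, filters and thresholds, and leaving out libraries were alternatives.

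The 5 genes, lists, rules and alternatives were chosen with earlier results of these data known. Named genes were the 5 genes and the highest Spearman correlation for each, with identifiers for 2. Symbols of the 5 genes came with the rule. The gene table at hand pairs no Ensembl identifiers with symbols, so lists of other stress genes and of cell type markers were not analysed here.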

Additional observations from a re-analysis of the deposited data

Results flagged for a closer look

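In groups of 6 libraries, the gap between an end value and its neighbour was set against the range of the group on the log2(CPM + 0.5) scale and compared with Dixon's 95% critical value. Of 15 groups (5 genes in 3 groups), 2 were above that value, where chance gives about 0.75. Hmox1 in the aged CR group had a gap of 0.674 of the range, with library 8828 at 58.5 CPM and the next library at 11.5. Hspb1 in young rats fed AL had a gap of 0.632, with rat 1 at 244 CPM and the next at 403. The causes were not tested.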

How the results depend on the processing

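Hspa5 in aged CR against young muscle was called in every alternative run, with values of -1.12 to -0.87 when 1 library was left out. Between aged and young rats fed AL, Hspa5 ran from -0.73 to -0.48 without 1 library. It was -0.60 with DESeq2, called with all libraries and not with only the 2 groups compared. With library totals as the only scaling it was -0.45 in edgeR (unadjusted p = 0.0564, adjusted p = 0.212), no longer at an unadjusted p under 0.05. Hspb1 in aged CR against young muscle was called at -1.01 (DESeq2), at -1 with only the 2 groups compared (edgeR and DESeq2) and at -0.93 without rat 8 and library 8828, and ran from -1.13 to -0.94 without 1 library. Without 1 library, Hspb1 ran from -0.74 to -0.41 in aged against young rats fed AL and from -0.59 to -0.27 between the aged groups, and Ddit3 from -0.46 to -0.26, from -0.28 to -0.13 (aged CR against young) and from 0.05 to 0.26. Hmox1 against young rats ran from -0.28 to 0.3 in aged rats fed AL, with negative values without rats 1, 3 or 11, and from -1.01 to 0.28 in aged CR rats, with negative values without rats 1 or 3 or library 8828. It was -1.01 without both rat 8 and library 8828. Hmox1 between the aged groups ran from -1.13 to 0.38, with positive values without rats 8, 11, 13, 14 or 15 or libraries 8826 or 8827. Nqo1 between aged and young rats fed AL ran from -0.24 to 0.06 (positive without rats 4 or 8), and was 0.06 without rat 8 and library 8828 and 0.09 with library totals, a scaling that moved the median of all genes by 0.18. The same scaling moved it by -0.17 between the aged groups, where Nqo1 ran from -0.25 to 0.12 (positive without rat 7 or library 8828). In aged CR against young rats Nqo1 ran from -0.31 to -0.03. Among the alternative values for the 5 genes, 421 kept direction and call status, 9 became calls and 20 changed sign, and no call was lost. Only Hspa5 in aged CR against young muscle was a call in the main fit, so only that result could lose one. Most of the 421 values were results that were not called and stayed so. The causes of the changes were not tested.

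Aged against young rats fed AL gave 497 called genes among all tested. The number was 985 and 849 with DESeq2 (all libraries and 2 groups), 258 with edgeR on 2 groups, 330 with 10 counts in every library, 124 at an adjusted p of 0.01 and 288 to 678 without 1 library (more than 1.5 times below without rats 1, 3, 5, 6 or 9). For aged CR against young rats it was 290, and was 706 and 952, 441 with edgeR on 2 groups, 107 at 0.01, 455 without rat 8 and library 8828 and 185 to 578 without 1 library (below by that margin without rats 3 or 5 or library 8826, above without rat 8). For aged CR against aged AL rats it was 202, and was 434 and 429, 130 with edgeR on 2 groups, 129 without a filter, 44 at 0.01, 477 without rat 8 and library 8828 and 69 to 385 without 1 library (below without rats 7 or 10 or libraries 8826 or 8827, above without rat 8 or library 8828). No paired analysis was possible because no replicate number is shared between groups.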
